A study of Rattus norvegicus with 3 samples.

Results

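Gene expression was compared between 14 and 7 days of hind limb unloading in rat soleus, to describe how the muscle differed between the end of the second and the end of the first week. Every named gene whose signal reached a floor (log2 6.01, the 40th percentile over the 3 arrays) on either of the 2 suspended arrays was included, which held for 10800 of 14217 named genes. Of these, 10001 reached the floor on both arrays and 799 on 1 of them; for the latter, signals under the floor were set to it, and a fold is written "at least". The highest of the excluded genes, Cfap45, lay at 6.01, and the lowest of the included ones, Ybey, at 6.02.

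The animals were Sprague-Dawley rats, 8 weeks of age per the labels, described there as white and with no other genotype. The suspended groups had the tail taped so that the body hung at about 30 degrees and the hind limbs bore no weight, for 7 or for 14 days, while the control group, labelled with the 7-day time, was fed normally. The material of 4 samples was mixed in each group and each pool was run on 1 Affymetrix expression array, so no spread between rats exists, a pool cannot show whether 1 rat carried a difference, and no test was possible. The 14-day sample carries 7 days in its source description and 14 days in its title and time entry, and was taken as 14 days. The control array does not enter the difference; its signal is printed beside both suspended signals to show where they lie. The 7-day array is shared by any reading of 7 days against control and of 14 against 7 days, so a gene misread on that array alone would look like an excursion that returned.

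The soleus is a postural muscle made largely of slow, oxidative fibres. Without load it loses mass through protein breakdown and reduced synthesis, and its fibres shift toward fast types, which carry other isoforms of myosin, troponin and calcium pumps and rely more on glycolysis. Ubiquitin ligases of muscle, such as Trim63 and Fbxo32, mark proteins for the proteasome, and their genes respond to FoxO factors and to glucocorticoid hormones. The tissue also holds fibroblasts, vessels, nerve, fat and the ends of tendon; in such bulk samples, fewer cells of a type and less RNA per cell cannot be told apart.

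The labelled tissue was borne out by Myh7, the slow myosin heavy chain, at a log2 signal of 15.84 at 7 days and 15.67 at 14 days, near the array maxima of 16.03 and 15.87. The arrays were scaled alike, with median signals of 6.70 and 6.76, and 18 hybridization control probe sets differed by a median of -0.04. The floor was reached by 59.1% and 59.3% of their probe sets, and the 3' probe set of Gapdh exceeded the 5' one by 0.24 and 0.20. For beta-actin this excess was larger, 1.21 at 7 days and 1.25 at 14 days. Technical error was read from 2411 cases in which a gene had another probe set: the spread between both, per probe set, gave an SD of 0.35 at signals under 8, 0.24 from 8 to 10 and 0.17 at 10 and above on the log2 scale, and this SD holds no variation between rats or pools.

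At 14 days 160 genes were at least 2-fold higher than at 7 days and 91 at least 2-fold lower, which is 1.48% and 0.843% of the measured genes, or 2.32% in all. At any size 51.8% of genes were higher and 48.2% lower. These counts include 30 and 15 bounds against the floor. Of the 251 genes 63.7% were higher, a split that was 52.7% with each array centred on its median. Low signals gave more of them: 4.31% of 3412 genes with a mean signal under 8 were 2-fold apart, against 1.30% of 3388 genes at 10 and above, where 23 were higher and 21 lower. A second probe set of the gene, read on the same arrays, was measured for 30 of the higher genes and pointed the same way for 23, by at least 1.5-fold for 14. For the lower genes the second probe set pointed the same way in 16 of 19 cases, by at least 1.5-fold in 9.

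**Figure D1:**
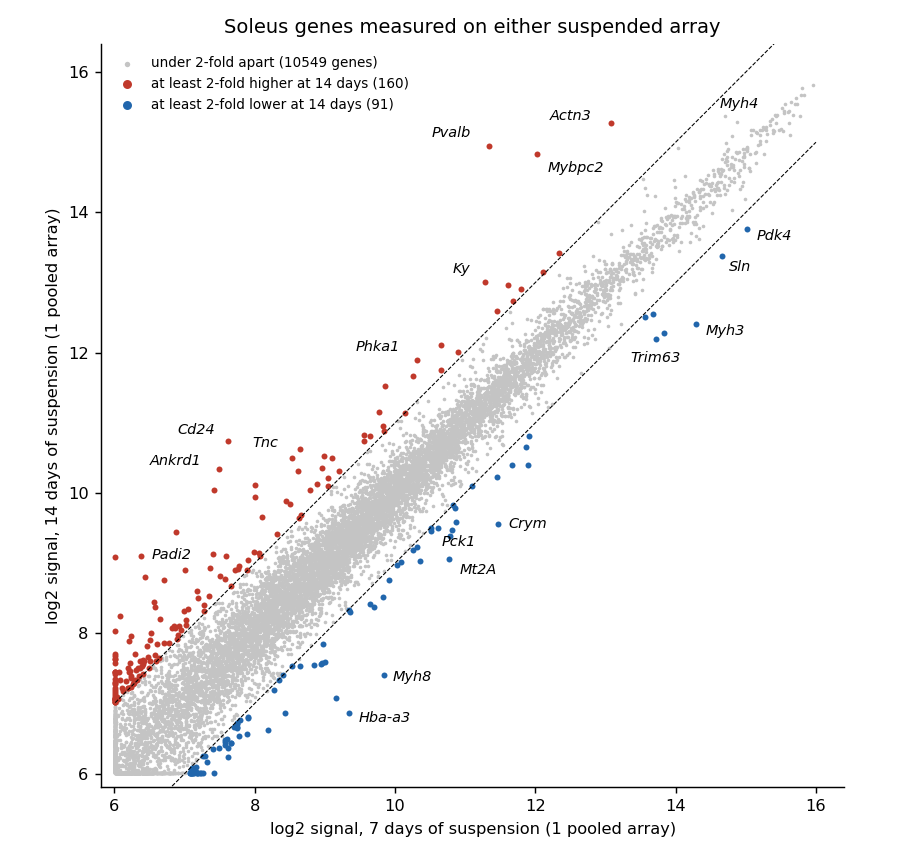
Log2 signals of the 10800 measured genes at 7 days (horizontal axis) and 14 days (vertical axis), 1 pooled array each, with signals under the floor drawn at 6.01; dashed lines mark 2-fold differences. Red points (160 genes) are at least 2-fold higher and blue points (91) at least 2-fold lower at 14 days; Pvalb, Mybpc2 and Actn3 stand apart at the top and Myh3, Pdk4 and Sln below the lower line.

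Fast fibre genes parted into a few that were much higher at 14 days and a majority that differed little. A 1.5-fold higher signal was found for 4 of the 18 members and a 1.5-fold lower one for none, beside 6.69% and 4.45% of all measured genes (11.1% either way). The median of the list was -0.03, beside 0.01 for all genes, and it turned to 0.12 under quantile normalization. The mean, into which those 4 genes enter with their full size, was 0.54.

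Pvalb encodes parvalbumin, the soluble calcium buffer that speeds relaxation of fast fibres. It read 9.49 in control, 11.34 at 7 days and 14.94 at 14 days (log2 signal), and the difference of 12.1-fold between the suspended arrays was the largest of all measured genes. Mybpc2, a thick filament protein of fast fibres (myosin-binding protein C, fast type), read 9.54, 12.02 and 14.83 and was 7.01-fold higher at 14 than at 7 days. A second Mybpc2 probe set gave a log2 difference of 3.41. Actn3, the alpha-actinin that anchors thin filaments at the Z-disc of fast fibres, read 8.94, 13.07 and 15.27 and was 4.57-fold higher at 14 days. In all these genes the 14-day signal was the highest of the 3 arrays and control the lowest. Mylk2, the kinase of the fast myosin regulatory light chain, had nearly equal signals in control (11.62) and at 7 days (11.64) and 12.58 at 14 days, a 1.93-fold difference that its second probe set also showed (log2 difference 1.07).

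The myosin heavy chains of adult fast fibres differed by less between the suspended arrays. Myh4, of type IIB fibres, was also lowest in control and highest at 14 days, at 8.62, 14.88 and 15.28, and its step in the second week was 0.40 on the log2 scale. Myh2, of type IIA fibres, differed by -0.15 and Myh1, of type IIX fibres, by -0.03 between the suspended arrays. The 4 further probe sets of Myh1 ran from -0.44 to 0.15. The fast troponins Tnni2, Tnnt3 and Tnnc2 differed by -0.07, -0.06 and -0.04. Signals of 15 or more were read for 7 of the 18 fast fibre genes at 7 days and for 10 at 14 days, where differences may be compressed. Atp2a1, the calcium pump of fast fibres, differed by 0.29 and Myoz1, a Z-disc protein of fast fibres, by 0.11.

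Myosins of immature fibres were lower at 14 than at 7 days. Myh8, the perinatal heavy chain, had a control signal under the floor (5.48), 9.84 at 7 days and 7.40 at 14 days, and was 5.41-fold lower at the later time. Myh3, the embryonic heavy chain, read 13.57, 14.30 and 12.41 and was 3.69-fold lower. Mybph, a relative of myosin-binding protein C, read 12.21, 13.84 and 12.28 and was 2.95-fold lower. All of these genes were highest on the 7-day array; at 14 days Mybph lay close to control, Myh3 under it and Myh8 above it. None has a further probe set above the floor.

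Slow fibre genes lay lower at 14 days in 16 of 16 measured members, with a median log2 difference of -0.35, and 5 were at least 1.5-fold lower. Quantile normalization left 14 of 16 lower and 4 at least 1.5-fold lower. Of these genes 13 had a mean signal of 14 or more, a range in which the median over all 221 measured genes was also below 0, at -0.14. Sln encodes sarcolipin, a small inhibitor of the calcium pump. It read 13.84 in control, 14.66 at 7 days and 13.38 at 14 days and was 2.43-fold lower at the later time. Casq2, the calsequestrin that stores calcium in slow fibres, read 13.66, 12.64 and 11.71, a stepwise decline over the 3 arrays with a 1.91-fold difference in the second week and -0.69 in a second probe set.

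Csrp3, a LIM protein of the Z-disc, was 1.74-fold lower (15.09, 14.99 and 14.19 in control, at 7 and at 14 days) and differed from control mainly on the later array. Tpm3, the slow tropomyosin, was 1.71-fold lower (15.21, 14.81 and 14.03), although its 11 further probe sets ran from -1.15 to 0.20. Ankrd2, a titin-associated stretch sensor, read 15.33, 14.39 and 13.81 and was lower by 0.59 on the log2 scale. The 5 measured genes of the slow thick filament differed by -0.04 (Mybpc1) to -0.43 (Myh6). A dimmer probe set of Myh7 gave -0.73, where the bright one gave -0.17 at signals near the array maximum.

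The start region of Casq2 is shown because it was the only one among 12 slow fibre genes found in the RefSeq promoter table to hold the MEF2 letters CTAAAAATA, searched on both strands in the 250 bases before the start. MEF2 factors drive many muscle genes. The letters occur in 0.442% of the 33469 promoters in the table, and also in 1 of 16 fast fibre genes, Myl1. The region is chr2:192214306-192214555 of GRCr8, plus strand, written 5′ to 3′ with the match, which lies on the opposite strand and begins 148 bases before the start, in capitals.
Casq2: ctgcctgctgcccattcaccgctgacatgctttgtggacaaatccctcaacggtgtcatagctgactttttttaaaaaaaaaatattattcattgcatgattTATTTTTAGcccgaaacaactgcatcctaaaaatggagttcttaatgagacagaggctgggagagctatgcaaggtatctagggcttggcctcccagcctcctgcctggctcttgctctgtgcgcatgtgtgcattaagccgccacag
A match of letters is a description and does not show a bound site.

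Of other sarcomere genes 23 of 28 lay below their 7-day signal, with a median of -0.26. Lower signals were read for 7 of 7 thin filament and 13 of 15 Z-disc genes. The 6 M-band and titin genes did not share this, with 3 higher, 3 lower and a median of -0.03. Quantile normalization gave the whole list a median of -0.15 with 21 of 28 lower, and 15 of the 28 had a mean signal of 14 or more. Ankrd1, a titin-binding repeat protein induced by load, read 10.51 in control, 7.49 at 7 days and 10.34 at 14 days. It was 7.24-fold higher at 14 than at 7 days, and a second probe set gave a log2 difference of 2.70. Both probe sets thus read lower at 7 than at 14 days, on the same arrays. The 14-day signal of the first one lay near control. Fhl2, a LIM-domain partner of titin, took the other course with 13.16, 11.45 and 10.23, 2.33-fold lower in the second week, and its second probe set gave -1.20.

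Fhl3, a related LIM protein, was 2.18-fold lower (12.88, 13.68 and 12.55). Lmod2, a leiomodin that lengthens thin filaments, was 2.06-fold lower (13.83, 13.56 and 12.51). These genes differ in where control lies: Fhl3 was highest at 7 days, Lmod2 in control. Myom2, the M-band protein myomesin 2 of fast fibres, was 1.72-fold higher (13.01, 13.56 and 14.34). Ky, a muscle peptidase that is in none of the lists, was 3.32-fold higher (9.997, 11.28 and 13.01), and a second probe set gave 2.25.

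**Figure D2:**
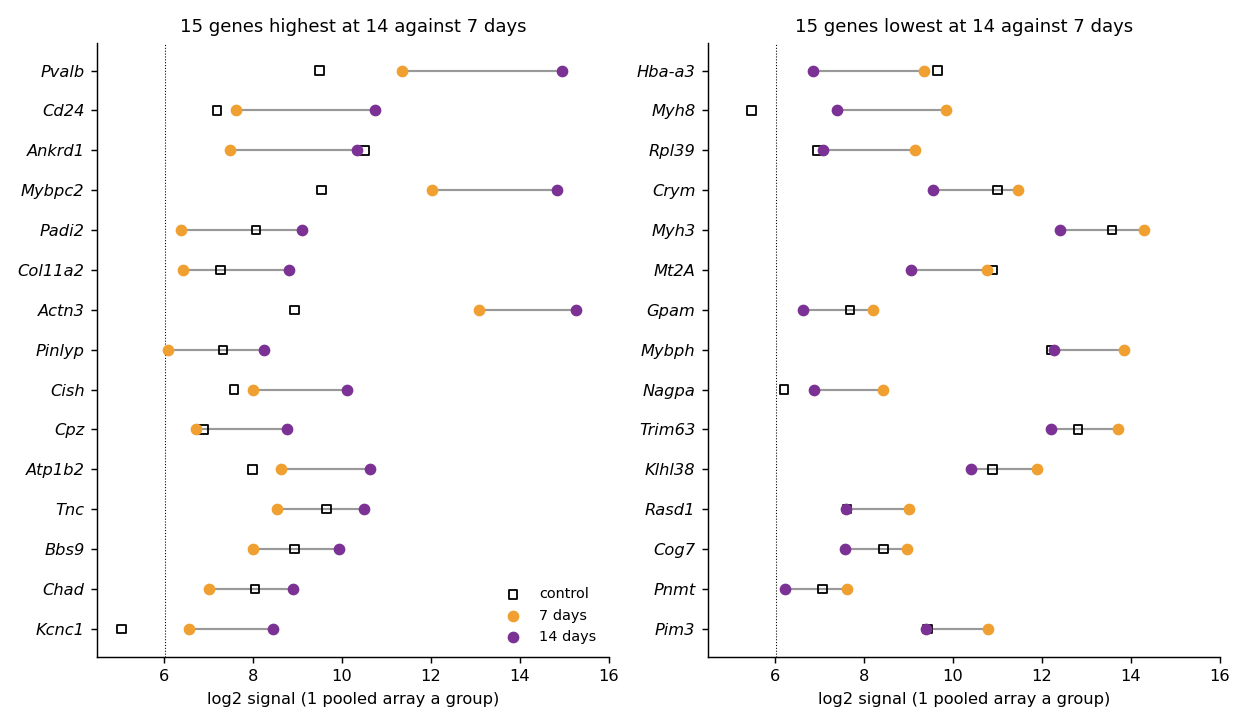
Log2 signals of control (open squares), 7 days (orange) and 14 days (purple), 1 pooled array each, for the 15 genes with the highest (left) and the 15 with the lowest (right) difference between 14 and 7 days among genes at or above the floor (dotted line) on both suspended arrays. Pvalb, Mybpc2 and Actn3 lie above control on both days, whereas for Ankrd1, Mybph and Pim3 the 14-day point falls on or near control.

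Genes known from muscle wasting were lower at 14 than at 7 days. Of 27 measured members 14 were lower and 1 was higher by 1.5-fold or more, with a median log2 difference of -0.67. Under both other scalings 15 were at least 1.5-fold lower. With the probe sets of a gene averaged, the median was smaller in size, at -0.48. The transcription and stress genes carried this, with 11 of 16 at least 1.5-fold lower and a median of -0.73, while the 11 ubiquitin ligases had a median of -0.04. Trim63, the muscle ligase that marks myosin for breakdown, read 12.81 in control, 13.71 at 7 days and 12.20 at 14 days. It was 2.86-fold lower in the second week and ended under its control signal. Fbxo32, the ligase also called atrogin-1, was 2.03-fold lower at low signals of 6.48, 7.74 and 6.72, where the technical SD is 0.35.

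Foxo1 and Foxo3, the factors that switch on these ligases, read 8.80 and 11.54 at 7 days and 7.83 and 10.68 at 14 days, 1.97-fold and 1.82-fold lower. Both lay above control at 7 days (8.45 and 10.93 in control) and under it at 14 days. Klhl38, a gene of the Kelch family that is in none of the lists, followed the same course with 10.88, 11.89 and 10.40 and was 2.81-fold lower. Gadd45g and Cebpd, both induced by stress, were 1.59-fold and 1.78-fold lower in the second week. Each still lay well above control at 14 days: Gadd45g read 9.18, 12.31 and 11.64, and Cebpd 8.73, 11.15 and 10.32. Eif4ebp1, which holds back translation initiation, was 1.62-fold lower. Asb2, a ligase substrate receptor of muscle, went the other way and was 2.07-fold higher, with 13.19 in control, 11.68 at 7 days and 12.73 at 14 days. Cdkn1a, a brake on the cell cycle, differed by -0.04, while a second probe set gave -0.91.

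The start region of Trim63 is shown because it held letters of both factor families named above, side by side. Among 21 atrophy genes found in the promoter table it was the only one with the FoxO letters GTAAACA, which 3.21% of all promoters hold. It was also the only one with a shortened glucocorticoid element, GAACA and TGTTC with any 3 bases between, which 0.0418% of promoters hold. The FoxO letters and this short element were searched after the sequences had been seen. The longer element, with A before and T after it, was found in none of the 21 genes. Neither form was found in any of the 17 glucocorticoid-induced genes in the table, of which Klf9 and Tsc22d3 hold the FoxO letters; among 7 tendon cell markers Comp holds the FoxO letters. The matches begin 219 (glucocorticoid) and 205 (FoxO, opposite strand) bases before the start, in chr5:151816986-151817235 of GRCr8, plus strand, with the matches in capitals.
Trim63: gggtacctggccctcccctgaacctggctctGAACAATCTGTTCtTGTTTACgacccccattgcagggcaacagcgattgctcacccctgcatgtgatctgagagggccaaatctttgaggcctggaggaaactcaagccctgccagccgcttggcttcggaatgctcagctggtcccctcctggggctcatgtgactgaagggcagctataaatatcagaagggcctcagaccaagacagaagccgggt

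Glucocorticoid-induced genes had the lowest median of the lists, -0.73, with 11 of 18 members at least 1.5-fold lower and none as much higher. Averaging the probe sets of a gene gave a median of -0.49. This list shares Mt2A, Klf15, Ddit4 and Cebpd with the atrophy genes, Pdk4 with the fatty acid genes, and Per1, Nfkbia and Dusp1 with others, so the lists are not separate evidence. Mt2A, a metallothionein that binds zinc, read 10.89 in control, 10.77 at 7 days and 9.06 at 14 days and was 3.28-fold lower. Pck1, the cytosolic phosphoenolpyruvate carboxykinase, was 2.44-fold lower, with 7.38 in control, 10.87 at 7 days and 9.59 at 14 days. It thus stood above control on both days. Errfi1, which restrains signalling by epidermal growth factor, was 2.31-fold lower (9.93, 11.86 and 10.65), and Fkbp5, a chaperone of the glucocorticoid receptor, 1.95-fold lower (9.84, 10.39 and 9.43). Other classical targets differed little: Sgk1, a kinase of salt and cell growth control, by 0.08, Per1, a clock gene, by -0.17 and Tsc22d3, an inhibitor of inflammation, by -0.11. In all, 16 of the 18 members lay lower and 2, Sgk1 and Lcn2, higher. Tat stayed under the floor on all arrays.

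**Figure D3:**
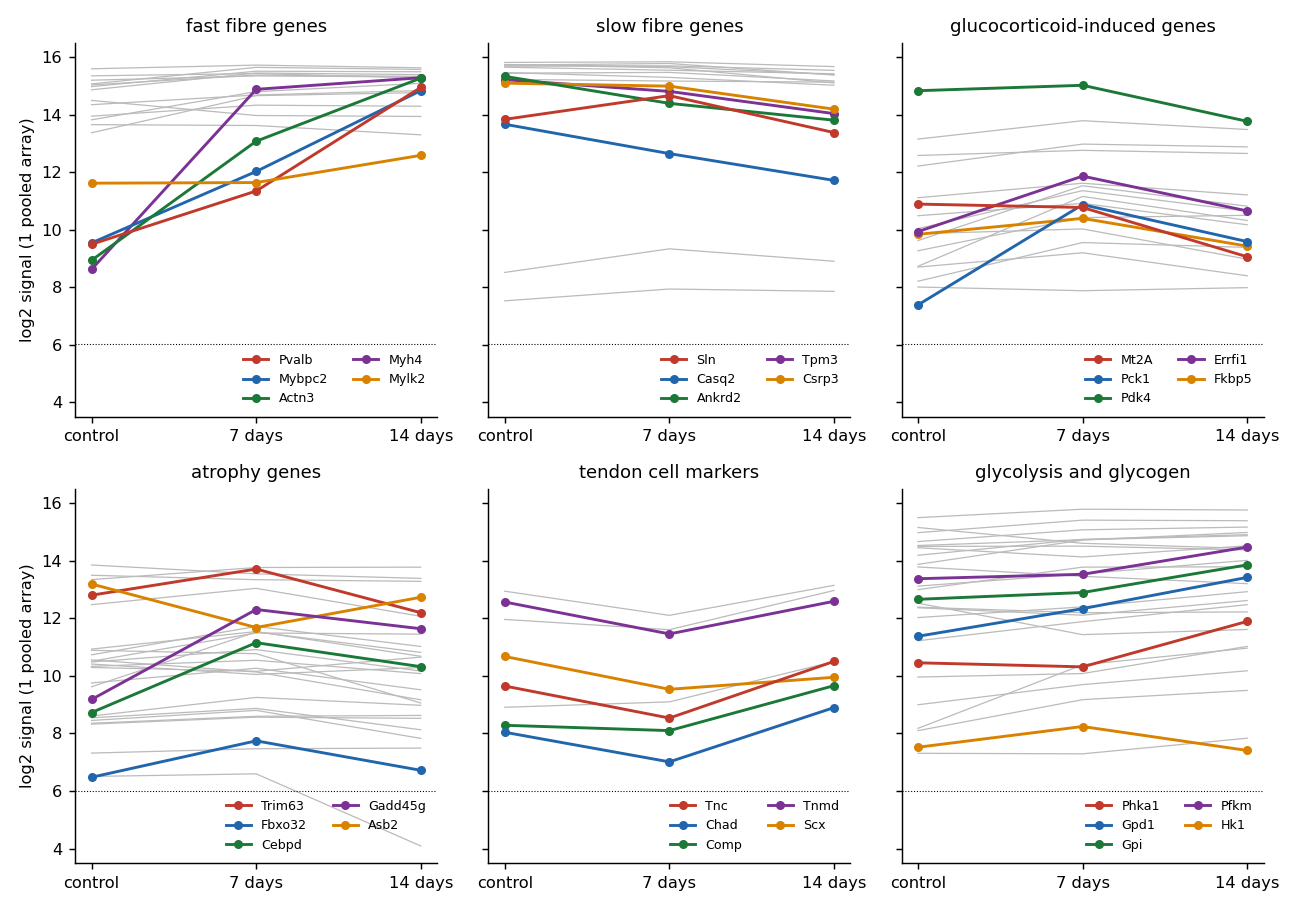
Log2 signals in control, at 7 and at 14 days (1 pooled array each) for the measured members of 6 gene lists; 5 members of each are coloured and the rest grey, and the dotted line is the floor of 6.01. Pvalb, Mybpc2 and Actn3 climb across the arrays, 11 of 18 glucocorticoid-induced genes are at least 1.5-fold lower at 14 than at 7 days, and tendon cell markers are at their lowest at 7 days for all but Cilp2.

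Ribosomal protein and proteasome genes lay lower at 14 days by mostly small amounts. Cytosolic ribosomal protein genes lay lower at 14 days in 38 of 38 measured members, with a median of -0.33, and 1 was at least 1.5-fold lower. That gene, Rpl39, stood apart at 4.21-fold lower, with 6.96 in control, 9.15 at 7 days and 7.08 at 14 days, far dimmer than most of the list, and reads of near-identical copies may add to its signal. Quantile normalization reduced the median to -0.19 with 36 of 38 lower; 34 of these genes have a mean signal of 14 or more, where all genes had a median of -0.14. Constitutive proteasome subunits, which sit mostly at moderate signals with a list median of 12.15, lay lower in 29 of 30 cases, with a median of -0.21 and none 1.5-fold apart. The 9 measured reference genes, with a list median signal of 12.28 and 4 of them at 14 or more, had a median of -0.16 with 6 lower. Quantile normalization gave medians of -0.17 for the proteasome subunits and -0.07 for the reference genes, so shifts of this size are not particular to a list. Psmd12 and Psmd1, subunits of the regulatory cap, differed by -0.48 and -0.44. Translation factors had a median of -0.10 with 19 of 27 lower, or 15 of 27 under quantile normalization. Lysosome and autophagy genes had a median of 0.07 (-0.05 with the probe sets of a gene averaged), with 13 of 22 higher and 1, Gabarapl1, at least 1.5-fold lower; the proteases Ctsd and Ctsb differed by 0.55 and 0.39 and Ctsl by -0.33.

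Heat shock genes were lower in 25 of 29 cases, with a median of -0.22, but only 1 passed 1.5-fold. Cacybp, a partner of the ubiquitin ligase Siah, was that gene, 1.51-fold lower, and was highest at 7 days (12.37, 12.53 and 11.93). The small heat shock proteins that guard the sarcomere were among the lower ones: Hspb7 read 14.56 in control, 14.33 at 7 days and 13.78 at 14 days, and Hspb1 15.17, 14.96 and 14.43. Hspa1a, the inducible HSP70, differed by -0.41 after 13.44 in control and 12.13 at 7 days. Hsph1, the HSP110 exchange factor of HSP70, read 11.66, 10.60 and 10.12. Hspb7, Hspb1, Hspa1a and Hsph1 were highest in control and lowest at 14 days, unlike Cacybp. Chaperones and stress factors of the endoplasmic reticulum lay higher in 15 of 18 cases, with a median of 0.16, or in 12 of 18 with centred arrays. The lower ones were the chaperones Hspa5 (-0.05), Hsp90b1 (-0.05) and Canx (-0.13), although further probe sets of Canx ran from 0.05 to 1.33. Only the stress factors Atf3 and Ddit3 passed 1.5-fold. They were 1.94-fold and 1.73-fold higher after lower signals at 7 days than in control.

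The start region of Hsph1 is shown because a heat shock element lies close to its start. The element, GAA, TTC and GAA each followed by any 2 bases before the next, was searched on both strands and found in 3 of 25 heat shock genes in the promoter table, Hspd1, Hspe1 and Hsph1, and in 0.663% of all promoters. In Hsph1 the match, on the opposite strand, begins 36 bases before the start, in chr12:10427118-10427367 of GRCr8, plus strand, with the match in capitals.
Hsph1: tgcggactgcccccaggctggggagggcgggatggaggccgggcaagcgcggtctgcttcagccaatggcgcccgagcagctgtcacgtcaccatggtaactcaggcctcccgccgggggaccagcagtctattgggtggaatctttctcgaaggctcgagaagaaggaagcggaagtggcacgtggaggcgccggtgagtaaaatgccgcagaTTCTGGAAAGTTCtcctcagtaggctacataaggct
The 3 genes differed by -0.24 (Hspd1), -0.13 (Hspe1) and -0.48 (Hsph1) between the suspended arrays.

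Glycolysis and glycogen genes lay higher at 14 days in 21 of 27 cases, with a median of 0.32; 6 were at least 1.5-fold higher and 1 as much lower. Phka1, a regulatory subunit of the kinase that activates glycogen phosphorylase, read 10.46 in control, 10.32 at 7 days and 11.90 at 14 days. Control and 7 days lay close together, 14 days was 2.99-fold above 7 days, and a second probe set gave a log2 difference of 1.54. Pfkm, the muscle phosphofructokinase, behaved alike with 13.38, 13.53 and 14.48, a 1.93-fold difference, and so did Gpi, the glucose phosphate isomerase, with 12.66, 12.90 and 13.86. Gpd1, which makes glycerol-3-phosphate in the cytosol, was lowest in control and highest at 14 days, with 11.38, 12.34 and 13.42, and was 2.12-fold higher at 14 days. Hk1, the hexokinase of many tissues, was 1.78-fold lower. Slc16a3, the transporter that exports lactate from fast fibres, was 1.71-fold higher (11.18, 12.33 and 13.11). Gpt2, the mitochondrial alanine aminotransferase, lay under the floor in control and at 8.45 and 9.88 on the suspended arrays.

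Oxidative genes differed less. Of 63 genes of oxidative phosphorylation none was 1.5-fold apart in either direction, and the median of -0.06 turned to 0.06 under quantile normalization. The same held for the 21 genes of the tricarboxylic acid cycle, whose median of 0.04 turned to -0.02 with centred arrays. Fatty acid genes had a median of -0.15 with 28 of 34 lower, 4 of them by at least 1.5-fold, and 6 higher, 1 of them by at least 1.5-fold. The 3 ketone body genes in the list had a median of 0.47 with 2 higher. That median is the value of Bdh1, which was under the floor at 7 days. Quantile normalization gave the whole fatty acid list a median of -0.07 with 23 of 34 lower. Adipocyte markers, which share Fabp4 and Lpl with this list, lay lower in 14 of 15 cases with a median of -0.38, and their part in it was not tested. Pdk4, the kinase that turns off pyruvate dehydrogenase, was 2.38-fold lower, with 14.83 in control, 15.02 at 7 days and 13.77 at 14 days, and by -2.33 on the log2 scale in a dimmer probe set. Ucp3, an uncoupling protein of muscle, was 1.62-fold lower and Mlycd, which removes malonyl-CoA, 1.64-fold lower. Ppargc1a, the coactivator of mitochondrial genes, and the receptors Esrrg and Esrrb differed by -0.52, -0.53 and -0.54, and none of the 20 mitochondrial regulators was 1.5-fold apart.

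The list of ion channels and pumps held 4 genes at least 1.5-fold higher among 20, and none as much lower. Under both other scalings 1 was as much lower. The 4 genes were Atp1b2, Kcnc1, Atp1b4 (1.64-fold) and Slc16a3, the lactate transporter given above with glycolysis. Atp1b2, which encodes a beta chain of the sodium-potassium ATPase, read 7.99 in control, 8.64 at 7 days and 10.62 at 14 days and was 3.95-fold higher. Kcnc1, a potassium channel of fast repolarization, was under the floor in control (5.04) and read 6.56 and 8.45, 3.70-fold higher in the second week. Both genes were highest at 14 days. Aqp4, the water channel of fast fibres, differed by 0.56, most of its distance from control (8.94) having been present at 7 days (11.40). Prkag2, a regulatory subunit of AMP-activated kinase, was 1.93-fold higher.

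Matrix genes were higher at 14 than at 7 days. Collagens and the enzymes that process them lay higher in 27 of 28 cases, with a median of 0.42, and 9 were at least 1.5-fold higher. Col1a1, the main chain of type I collagen, read 13.88 in control, 14.03 at 7 days and 14.92 at 14 days and was 1.86-fold higher, with a log2 difference of 1.33 in a second probe set. Col12a1, a collagen that coats fibrils, was 2.55-fold higher (9.51, 8.50 and 9.85). Col6a1 and Col6a2, chains of the microfibrillar collagen around fibres, were 1.89-fold and 2.07-fold higher, although a second probe set of Col6a2 gave -0.34. Col3a1, the chain of reticular fibrils, differed by 0.08 at signals of 15.10 and 15.18. The collagen cross-linking enzymes Lox and Loxl2 were 1.78-fold and 2.04-fold higher, and Serpinh1, the collagen chaperone, 1.71-fold. Col4a1 and Col4a2 of basement membrane differed by 0.16 and 0.33.

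Tendon cell markers differed by more. Of 8 measured tendon cell markers, 7 were at least 2-fold higher and the median was 1.38, the highest of the lists. Tnc, the tenascin of tendon and muscle-tendon junction, read 9.65 in control, 8.54 at 7 days and 10.50 at 14 days and was 3.91-fold higher. Chad, a leucine-rich protein of cartilage, was 3.70-fold higher (8.04, 7.01 and 8.90) and Comp, a thrombospondin of tendon, 2.95-fold higher (8.28, 8.10 and 9.66). Tnmd, the tendon membrane protein tenomodulin, read 12.57, 11.46 and 12.59, so its 14-day signal lay on the control signal. Scx, the transcription factor that defines tendon cells, was the exception, with 10.68, 9.53 and 9.95 and a difference of 0.42. Col11a2 and Col11a1, chains of a cartilage collagen, were 5.14-fold and 2.90-fold higher, and Col10a1, of growing cartilage, at least 3.16-fold, whereas Col9a2, another cartilage collagen, was at least 2.38-fold lower.

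Unlogged and summed, the 8 tendon cell markers came to 21443 in control, 12405 at 7 days and 28450 at 14 days. How much tendon each pool held is not recorded, and its part in the differences was not tested. Of the general fibroblast markers 3 of 12 were at least 1.5-fold higher (Thy1, Dpp4 and Col1a1), while Pdgfra, Dcn and Lum, which mark fibroblasts at large, differed by -0.10, 0.02 and -0.16. The median of the fibroblast list was 0.11. Second probe sets gave log2 differences of 0.34 for Thy1 and 0.31 for Dpp4, both under 1.5-fold, and 1.33 for Col1a1. Itga1, a collagen-binding integrin, was 3.22-fold higher (7.87, 6.21 and 7.89), at control level on the later array. Among 25 laminin, integrin and adhesion genes 1 other gene, Itga6, was at least 1.5-fold higher.

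**Figure D4:**
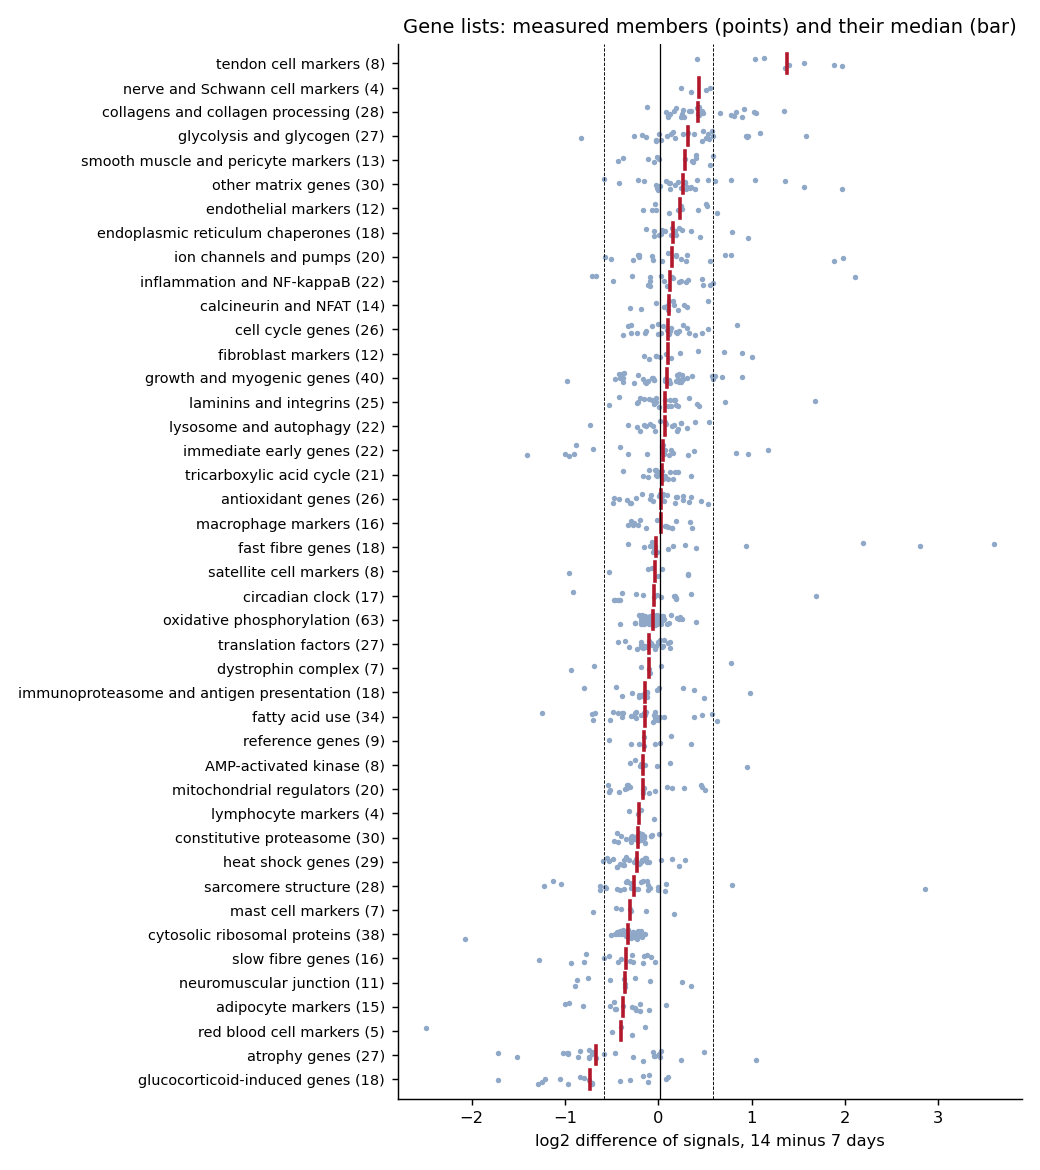
Log2 difference of signals, 14 minus 7 days, for the measured members (points, spread vertically for view) of each gene list, with the list median (red bar); the number of members is in parentheses, the solid line is the median of all genes (0.01) and dashed lines mark 1.5-fold. Tendon cell markers have the highest median (1.38) and glucocorticoid-induced genes the lowest (-0.73), while the 4 fast fibre genes to the right lie far from a list median of -0.03.

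Genes of the neuromuscular junction had a median of -0.36, with 9 of 11 lower, 3 of them by at least 1.5-fold. The 2 higher ones were Chrna1, the alpha subunit of the acetylcholine receptor, by 0.35 and Dok7 by 0.25. Chrnd, the delta subunit of the acetylcholine receptor, read 11.01 in control, 9.94 at 7 days and 9.05 at 14 days. Ncam1, an adhesion molecule of denervated fibres, was 1.84-fold lower, although its second probe set gave -0.14, and Lrp4, the agrin receptor of the fibre, 1.68-fold lower. Musk and Chrng did not reach the floor on the suspended arrays. The growth and myogenic list had a median of 0.09 with 4 of 40 at least 1.5-fold higher and 1 lower. These counts lie near the share over all measured genes, of which 6.69% were as much higher and 4.45% lower (11.1% either way). With centred arrays 2 of 40 were at least 1.5-fold higher. Myod1, a myogenic factor linked to fast fibres, was 1.86-fold higher (8.14, 9.09 and 9.99), above control on both days. Igf2, a growth factor of fetal and regenerating muscle, was 1.97-fold lower (11.46, 12.24 and 11.26), and Myog, a factor of late differentiation, differed by 0.24. Mstn, the secreted inhibitor of muscle growth, did not reach the floor.

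Early response genes went both ways, with 6 of 22 lower and 3 higher by 1.5-fold or more. Egr1, a zinc finger factor induced by growth signals, was 2.26-fold higher (9.78, 9.04 and 10.22). Maff, a small leucine zipper factor, was 2.0-fold lower (9.58, 8.40 and 7.40), Csrnp1 at least 2.66-fold lower, and Fos read 12.08, 10.74 and 9.83. Cish, a suppressor of cytokine signalling induced by growth hormone, read 7.57, 8.00 and 10.12 and was 4.32-fold higher, while a dimmer probe set gave a log2 difference of 0.43. The other inflammatory genes differed less, with a list median of 0.12. Bhlhe41, a repressor of the clock, was 3.23-fold higher (9.67, 8.61 and 10.31) and Per3, a clock gene, 1.88-fold lower (-0.18 in a second probe set), in a list with a median of -0.05. The hour at which each group was killed is not given in the sources used here, and its part in clock and early response genes was not tested.

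Of the 11 lists of cell type markers 8 had a median of at least 0.2 in size, in both directions. Macrophage markers had a median of 0.03 with none of 16 at least 1.5-fold apart, and summed to 20451 at 7 days and 20402 at 14 days unlogged; Itgam and Cx3cr1 did not reach the floor. Endothelial markers had a median of 0.23, with 1 of 12, the receptor Kdr, at least 1.5-fold higher. Smooth muscle and pericyte markers had a median of 0.29 over 13 genes, with 1, the receptor Pdgfrb, 1.51-fold higher, although its further probe sets ran from -0.56 to 1.32. Of these 13 genes 8 lay higher, and Acta2, Actg2 and Cnn1 differed by -0.01, 0.01 and -0.04. With the probe sets of a gene averaged, the endothelial median fell to 0.05 and the smooth muscle and pericyte median to 0.01. Satellite cell markers had a median of -0.03 over 8 genes, with Sdc4, a surface proteoglycan, 1.94-fold lower. Among the lower adipocyte markers were the triglyceride enzyme Dgat2 (2.0-fold) and Thrsp, a regulator of lipid synthesis (1.75-fold), while Adipoq, a hormone of fat cells, differed by -0.29 on the log2 scale. Mast cell markers had a median of -0.31 over 7 genes, with Cpa3 1.63-fold lower. The 4 measured nerve and Schwann cell markers had a median of 0.43, with none 1.5-fold apart, or 0.30 with the probe sets of a gene averaged. Further probe sets of Mbp, 1 of the 4, ran from -0.83 to 0.85. Sox10, Mag and the neurofilaments Nefl and Nefm did not reach the floor. Lymphocyte markers were measured for 4 of 12 named genes, with a median of -0.20 and none 1.5-fold apart.

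Red blood cell markers also differed. Hba-a3, an alpha-globin gene, was the lowest of all measured genes at 5.62-fold lower, with 9.66 in control, 9.35 at 7 days and 6.86 at 14 days. Hbb, the beta-globin, which was far brighter, differed by -0.40 at 14.28, 14.55 and 14.15. Alpha-globin genes are near-identical copies, so the probe set may read more than 1 of them. The 5 measured red cell markers had a median of -0.40 and summed to 25133 at 7 days and 18628 at 14 days unlogged; the part of blood left in the muscle was not tested.

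Several of the largest differences fall outside the lists. Cd24, a small surface glycoprotein, was 8.73-fold higher (7.19, 7.62 and 10.74) with control and 7 days close together. Padi2, an enzyme that turns arginine into citrulline in proteins, was 6.63-fold higher (8.07, 6.38 and 9.11), Pinlyp, an inhibitor of phospholipase A2, 4.45-fold higher, and Cpz, a matrix carboxypeptidase, 4.13-fold higher (6.89, 6.71 and 8.76). Bbs9, a ciliary transport protein, was 3.83-fold higher. Padi2, Pinlyp and Bbs9 had their lowest signal at 7 days. With the 7-day signal under the floor, Doc2g was at least 8.45-fold higher (8.43 in control and 9.09 at 14 days), the class I histocompatibility gene RT1-CE16 at least 4.05-fold and Cyp1a1, the target of the aryl hydrocarbon receptor, at least 3.25-fold.

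On the lower side, Crym, a binding protein of thyroid hormone, was 3.76-fold lower (11.001, 11.47 and 9.56). Gpam, the first enzyme of triglyceride synthesis, was 2.96-fold lower, although a second probe set gave -0.47. Pim3, a survival kinase, and Rasd1, a small GTPase induced by glucocorticoids, were 2.61-fold and 2.65-fold lower. Both read nearly the same in control and at 14 days: Pim3 9.43, 10.78 and 9.39, and Rasd1 7.62, 9.004 and 7.60. Nagpa, a lysosomal sorting enzyme, was 2.95-fold lower, and Pnmt and Cog7 2.62-fold, with -0.42 in a second probe set of Cog7. With the 14-day signal under the floor, Rassf10 was at least 2.34-fold, the kinase Map3k14 at least 2.31-fold and the protease Adam10 at least 2.26-fold lower.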

How the data were processed

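RNA of rat soleus was extracted with Trizol, cleaned with an RNeasy kit and labelled with biotin, per the labels' protocols, and a pool of 4 samples was run on 1 array a group. One log2 signal was deposited for each probe set of an array; the authors had scaled these to nearly equal 2% trimmed means (500.248 at 7 days and 500.239 at 14 days, read from the values); the program is not given in the sources used here. They were used as deposited. Of 31099 probe sets, 57 controls, 436 of several genes and 9780 without a gene were left out; 20826 with 1 gene remained, named by the platform annotation, of which 20758 had a gene ID in the RefSeq table (GRCr8). The probe set of highest mean signal over the 3 arrays stood for its gene. Differences were 14 minus 7 days after signals under 6.01 (64.6 unlogged) were set to it; genes 2-fold and list members 1.5-fold apart were counted, without a test.

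The 43 gene lists held 1001 genes, 881 of them named on the array. Lists, members and rules were chosen with earlier results of these data known. Named genes were the 15 highest and 15 lowest differences, 5 bounds a direction, the 4 largest of each list and 20 fixed genes, predicted loci passed over (2 among the highest); Ky, Gpt2, Col11a1 and list members beyond these were named after their values were seen, and not all 205 genes are reported. The counting was checked on simulated data. Motifs were searched on both strands. Promoter sequences came from RefSeq (GRCr8), without the last 50 bases, which follow the start. Python 3.11.15, numpy 2.4.6 and pandas 2.3.3 were used. The alternatives were 2 other scalings, 4 floors or filters, both arrays above the floor and 2 probe set rules.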

Additional observations from a re-analysis of the deposited data

Results flagged for a closer look

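Probe sets that the annotation ties to no gene or to several were left out of the report. Of these, 4972 reached the floor on either suspended array, and at a 2-fold limit 89 (1.79%) were higher and 54 (1.09%) lower at 14 than at 7 days. At 14 days 43 of them stood at least 2-fold above both the 7-day and the control array, a signal outside the analysed genes that is above control. With all arrays at or above the floor, the largest such difference had log2 signals of 6.24 in control, 7.26 at 7 days and 9.18 at 14 days.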

How the results depend on the processing

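The 160 higher and 91 lower genes at 2-fold depend on the floor. With a floor at the 30th percentile they were 270 and 176, at the 50th percentile 94 and 57, and with no floor and no filter 1179 and 1077; the technical SD is largest at low signals. Averaging all probe sets of each gene gave 182 and 139. Centring each array on its median gave 129 and 116, and quantile normalization 137 and 101. Of 111 named genes at least 1.5-fold apart, 109 kept their sign under every alternative that gave a value; the exceptions were Ciita and RT1-Bb, whose means over probe sets were 0.28 and -0.67 against -0.79 and 0.98. All 19 lists with a median of at least 0.2 in size kept its sign, and 35 of 43 lists did in all. With probe sets averaged, however, the endothelial median fell to 0.05 and the smooth muscle and pericyte median to 0.01. The same rule brought the glucocorticoid-induced median from -0.73 to -0.49 and the atrophy median from -0.67 to -0.48. No paired analysis was possible because each group is 1 pooled array and no test was made. With 1 array a group, signal over background and the missing spread between rats limit every value, most of all under a log2 signal of 8.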
